A study of Mus musculus with 12 samples.

Results

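The enzymes described here carry sulfur from methionine through homocysteine to cysteine and on to taurine in mouse liver: Mat1a, Mat2a, Gnmt, Ahcy, Bhmt, Bhmt2, Cbs, Cth, Cdo1 and Csad. They are listed by gene symbol, a list drawn up with earlier results of these data known, and every probe set (a group of array probes read as 1 value) whose platform annotation gave 1 of these symbols was taken. Of the 10 enzymes, 9 were found, on 11 probe sets, out of 12393 genes with a probe set. No probe set in the annotation used here carried the symbol Mat2a, so Mat2a was not analysed.

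Livers of male mice (strain C57BL6/J, age 8 weeks) were read on 12 arrays, 3 in each of 4 groups. The labels used here do not state that each liver came from a separate animal. The p-values therefore set differences against the spread between these samples, which is not known to be a spread between animals. Mice labelled Txnrd1 liver-null (called null below) had a conditional allele of Txnrd1 disrupted by albCre, a recombinase made in hepatocytes, so that other liver cells were not targeted. The others were labelled wild-type (WT), and the labels used here do not say whether these mice carried the recombinase or the unrecombined allele. The groups were null mice given acetaminophen (APAP, 100 mg/kg into the peritoneum), WT mice given APAP, null mice given saline and WT mice given saline, all taken 8 hours after injection. Livers are named by the number that ends their title.

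Methionine is activated to S-adenosylmethionine, the methyl donor of the cell, and after the methyl group is given away the remainder is cleaved to homocysteine. Homocysteine is either methylated back to methionine or joined with serine by Cbs and then split by Cth, a route called transsulfuration that yields cysteine. Cysteine made this way is already reduced, whereas imported cystine is a disulfide that must first be reduced, and cysteine limits the synthesis of glutathione, which captures the reactive metabolite of APAP. Txnrd1 is the cytosolic thioredoxin reductase, 1 of the enzymes that pass electrons to disulfides.

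Values are log2 expression per probe set as deposited, so a difference of 1 on this scale is a doubling. Array medians lay at 2.91 to 2.99, and 4 arrays (null APAP 17, WT APAP 14, null saline 16 and WT saline 10, 1 per group) had an upper quartile of 5.49 to 5.58 against 5.73 to 5.85 on the other 8. The labels do not name these 2 sets of arrays. On its bright probe set Txnrd1 went against the labels: it read 10.26 to 10.58 in the 6 livers labelled null, against 9.43 to 9.81 in the 6 WT livers. Its other 2 probe sets read 1.33 to 1.61 and 1.62 to 2.06, below the 40th percentile of every array (2.42 to 2.48). On the second of these the means were lower in null livers, at 1.81 against 2.00 after APAP and 1.81 against 1.92 in saline. The position of these probes relative to the deletion is not known here, and every direction below rests on the labels alone. Hepatocyte markers were high on every array (mean level of 7 of the 8 listed genes 13.14 to 13.34), while the means of the lymphocyte and cholangiocyte lists (2.27 to 2.70) lay below the array medians. Above the medians lay the means of the Kupffer cell or macrophage list (5.68 to 6.95) and of the endothelial list (4.43 to 5.48).

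Of the 9 measured enzymes, Cbs alone passed the test between the genotypes. Cbs was lower in livers labelled null, by 1.92-fold in saline and 1.64-fold averaged over both treatments. The other 8, from the first step of the methionine cycle to the last step before taurine, did not pass the test in any comparison, and neither did Cbs after APAP taken alone. No member was called for APAP in either genotype. All 9 enzymes were bright, with mean levels between the 92.7th and 99.8th percentile of all genes on the array, and all 9 passed the filter on low values.

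Cbs, cystathionine beta-synthase, makes the first committed step of transsulfuration. The promoter of this gene is shown because Cbs is the member that differed. It covers 250 bases before to 50 bases after the start used for it in the RefSeq table of GRCm38.p6. That start is not the listed 5′ end of the gene, chr17:31637233, which lies inside the window. The window is chr17:31637156-31637455 on the minus strand, written 5′ to 3′ with the motif matches described below in capitals.
Cbs: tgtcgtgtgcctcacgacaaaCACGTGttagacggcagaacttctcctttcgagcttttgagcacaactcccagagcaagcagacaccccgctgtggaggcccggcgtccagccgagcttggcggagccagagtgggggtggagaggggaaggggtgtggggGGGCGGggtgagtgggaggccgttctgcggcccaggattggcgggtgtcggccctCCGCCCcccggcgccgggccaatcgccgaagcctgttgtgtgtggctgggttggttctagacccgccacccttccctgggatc

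In all, 5 motifs were searched on both strands: the core of the antioxidant response element (TGACNNNGC), the ATF4 composite element (TGATGNAAT), the GC box (GGGCGG), the E-box (CACGTG) and the TATA box (TATAAA). The Cbs window held 2 GC boxes, starting 88 and 33 bases before the start used for the window. It also held 1 E-box, starting 229 bases before that start, and the matches did not overlap. GC boxes occur in 35.7% of all 32851 promoter windows of the table and E-boxes in 7.15%. The antioxidant core, found in 12.4% of all windows, and the ATF4 element, found in 0.965%, have no match in these letters of Cbs. Windows were listed for 6 of the 9 measured enzymes, 7 windows in all because Csad has 2. Among these, 4 held a GC box, 1 an E-box, and 0 the antioxidant core, the ATF4 element or a TATA box. A TATA box occurs in 13.6% of all windows, and 7 windows are too few to set a count of 0 apart from such shares. A match is a string of letters, not a bound site.

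Cbs was read by 2 probe sets. On the brighter one it read 9.08, 9.05 and 8.87 in null saline livers 4, 5 and 16, against 10.30, 9.90 and 9.63 in WT saline livers 8, 9 and 10. Every null liver lay below every WT liver, and WT saline 8 stood highest. The log2 difference was -0.94 (SE 0.16, 95% interval -1.30 to -0.58; adjusted p = 0.0276, limma), with an SD of 0.11 among the null and 0.34 among the WT livers (n = 3 each). In bulk liver, fewer cells of a type and less RNA per cell cannot be told apart. This was the 1 call among the 9 enzymes in saline, where 0.638% of all 8469 genes tested were called (0.272% lower) and the groups did not overlap for 15.2%.

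The Cbs call in saline rested on few arrays. It was lost without WT saline 8 or 9 or any 1 of the 3 null saline livers, with differences of -0.76 to -0.98 in those 5 fits (adjusted p = 0.060 to 0.106), and in a fit to the 6 saline arrays alone (difference -0.94, adjusted p = 0.131). Within the array sets the saline difference was -1.03 in the set of 8 arrays and -0.76 in the set of 4, which has 1 array per group, and with the set as a covariate the adjusted p was 0.00767.

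After APAP the brighter Cbs probe set read 9.20, 9.30 and 9.01 in null livers 2, 3 and 17, against 9.80, 9.54 and 9.60 in WT livers 12, 13 and 14. Again no null liver reached the lowest WT liver (after APAP the groups did not overlap for 13.9% of all genes). The difference was -0.48 (SE 0.16, 95% interval -0.84 to -0.12) and missed the threshold (adjusted p = 0.300, limma); 0 of the 9 enzymes were called after APAP, where 0.768% of genes were. Averaged over both treatments Cbs was lower by a log2 difference of -0.71 (SE 0.12, 95% interval -0.97 to -0.46, adjusted p = 0.00592, limma). All 6 null livers, at 8.87 to 9.30, lay below all 6 WT livers, at 9.54 to 10.30, a separation that 4.36% of all genes showed. This call held in all 20 alternatives run for it, with differences of -0.84 to -0.62.

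The dimmer probe set of Cbs gave the same direction. It read 6.70, 6.68 and 6.60 in null saline livers 4, 5 and 16, against 8.60, 7.78 and 7.97 in WT saline livers 8, 9 and 10. That is a log2 difference of -1.45 (SE 0.20), or 2.74-fold lower, in a fit over 13124 probe sets (adjusted p = 0.0117, limma), a call lost without null saline 5 (difference -1.47, adjusted p = 0.0573). After APAP it read 7.22, 7.30 and 6.85 in null livers 2, 3 and 17, against 7.56, 7.48 and 7.74 in WT livers 12, 13 and 14, a difference of -0.47 (SE 0.20, adjusted p = 0.488, limma). Averaged over treatments the dimmer probe set differed by -0.96 (SE 0.14, adjusted p = 0.00330, limma). On both probe sets, then, the gap between genotypes was wider in saline than after APAP, but the test of that interaction was not passed on either: 0.46 (SE 0.23) on the brighter and 0.98 (SE 0.28) on the dimmer (adjusted p = 0.999 and 1.00, limma). Without WT saline 8 the interaction on the brighter probe set was 0.28, and it was 0.61 within the set of 8 arrays and 0.16 within the set of 4.

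**Figure D1:**
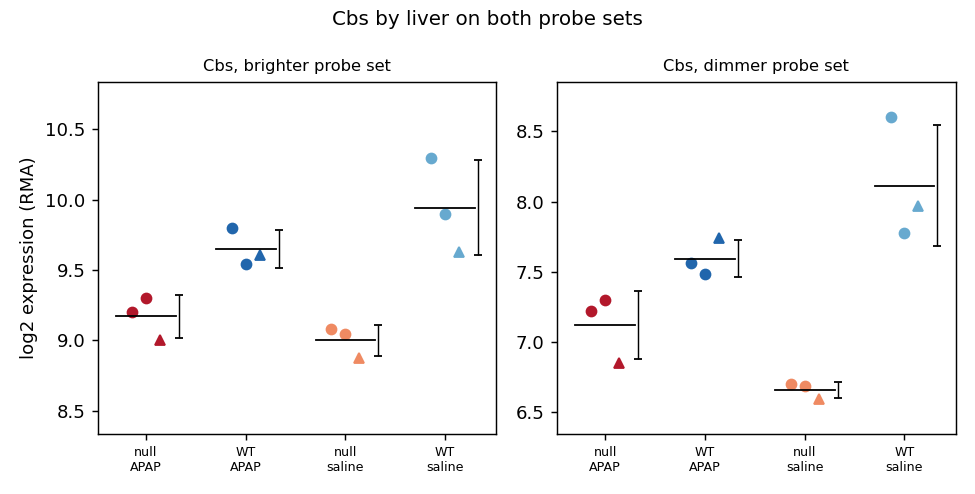
Log2 expression of Cbs (y axis) in each liver of the 4 groups (x axis), brighter probe set on the left and dimmer on the right; circles are the 8 arrays with the higher upper quartile, triangles the 4 with the lower, horizontal lines group means and bars 1 SD of 3 livers. On both probe sets the null livers lie below the WT livers of the same treatment, and WT saline 8 is the highest array.

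The 5 tested genes whose profile over the 12 arrays was most like that of Cbs were Pglyrp2 (Pearson r = 0.968), Ctdsp1 (r = 0.963), Itih2 (r = 0.949), Pmm2 (r = 0.947) and Itih1 (r = 0.939). Ctdsp1 encodes a small phosphatase that acts on RNA polymerase II, Pglyrp2 encodes a secreted amidase of bacterial cell wall peptides, Itih1 and Itih2 encode heavy chains of a plasma protease inhibitor, and Pmm2 is a phosphomannomutase of protein glycosylation. These values describe 12 arrays that share genotype, treatment and array set, and part of each r is the genotype difference itself. For deviations from the group means the r with Cbs was 0.898 for Pglyrp2 and 0.667 for Itih1.

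Cth, cystathionine gamma-lyase, releases cysteine from the product of Cbs and passed no test. In saline Cth read 10.74, 11.25 and 11.24 in null livers 4, 5 and 16, against 11.49, 11.18 and 11.16 in WT livers 8, 9 and 10, so the groups overlapped. After APAP it read 11.21, 11.42 and 11.33 in null livers 2, 3 and 17, against 10.75, 11.16 and 11.01 in WT livers 12, 13 and 14, and these did not overlap, as was the case for 13.9% of all genes. The Cth differences between genotypes were -0.20 in saline (95% interval -0.57 to 0.16) and 0.35 after APAP (95% interval -0.02 to 0.71), neither past the threshold (adjusted p = 0.739 and 0.598, limma). Among the members Cth had the largest interaction on the gene scale, 0.55 (SE 0.24, unadjusted p = 0.0385, adjusted p = 0.999, limma).

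No enzyme of the methionine cycle was called, and the intervals bound how far each could differ. Mat1a, the liver form of methionine adenosyltransferase that makes S-adenosylmethionine, averaged 12.42 ± 0.15 in livers labelled null and 12.35 ± 0.05 in WT livers (SD, n = 6 each). Null saline 4 was the highest Mat1a array at 12.66, and the rest lay between 12.25 and 12.53. The interval of the genotype difference averaged over treatments, -0.11 to 0.26, allows a null signal from 0.926 to 1.20 times that of WT.

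Gnmt, glycine N-methyltransferase, uses surplus S-adenosylmethionine to methylate glycine and is abundant in liver. Its level was 12.42 ± 0.10 in null and 12.42 ± 0.11 in WT livers (SD, n = 6 each), with an interval of 0.887 to 1.13 times. Ahcy, which cleaves S-adenosylhomocysteine to homocysteine, averaged 12.25 ± 0.05 in null and 12.19 ± 0.09 in WT livers (SD, n = 6 each), with an interval of 0.938 to 1.16 times. The SD of Ahcy within groups was 0.07, against a median of 0.21 over all genes tested, whose median level of 5.09 is far below that of Ahcy, and the part of signal level in this spread was not tested.

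Bhmt moves a methyl group from betaine to homocysteine, and Bhmt2 does so from S-methylmethionine. In saline Bhmt read 12.89, 12.42 and 12.80 in null livers 4, 5 and 16, against 12.92, 13.10 and 12.84 in WT livers 8, 9 and 10. After APAP it read 12.48, 12.98 and 12.99 in null livers 2, 3 and 17, against 13.12, 13.08 and 12.89 in WT livers 12, 13 and 14. Null saline 5 and null APAP 2 were low for Bhmt, and the groups overlapped under both treatments. Averaged over treatments the Bhmt difference was -0.23 (95% interval -0.49 to 0.03, adjusted p = 0.373, limma). With array weights Bhmt was called, at -0.54 in saline (adjusted p = 0.0162) and -0.38 over treatments (adjusted p = 0.0275). That setting called 1323 of all 8469 genes in saline and 1409 over treatments. Its highest weights went to WT saline 9 (4.63) and null saline 5 (3.68), the highest and the lowest saline liver for Bhmt. Within the array sets the Bhmt difference over treatments was -0.36 in the set of 8 and 0.03 in the set of 4.

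Bhmt2 had a lower mean in null livers on both of its probe sets, without a call. Bhmt and Bhmt2 are close paralogs, and whether probes of one bind transcripts of the other was not tested. On the main one it averaged 10.28 ± 0.25 in null and 10.53 ± 0.11 in WT livers (SD, n = 6 each), a difference of -0.25 (95% interval -0.51 to 0.02, adjusted p = 0.334, limma). On the other it averaged 10.23 ± 0.18 in null and 10.51 ± 0.11 in WT livers, a difference of -0.28 (95% interval -0.50 to -0.06, adjusted p = 0.174 over probe sets, limma). On this probe set the saline groups did not overlap, at 10.08 to 10.35 in null and 10.45 to 10.53 in WT livers. On main probe sets that was the case in saline for 15.2% of all genes. Null APAP 2 was the lowest array on both Bhmt2 probe sets, at 9.95 and 9.99.

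Cysteine that is not built into glutathione or protein is oxidised by Cdo1, cysteine dioxygenase, whose product Csad, cysteine sulfinic acid decarboxylase, converts to hypotaurine, the precursor of taurine. Cdo1 averaged 11.97 ± 0.10 in null and 11.93 ± 0.06 in WT livers (SD, n = 6 each), with an interval of 0.917 to 1.15 times. All 12 arrays lay between 11.85 and 12.12.

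Csad had a higher mean in livers labelled null under both treatments without passing the test. After APAP it read 10.69, 10.62 and 10.36 in null livers 2, 3 and 17, against 9.89, 10.06 and 10.22 in WT livers 12, 13 and 14. These did not overlap, as was the case for 13.9% of all genes. In saline Csad read 10.60, 10.70 and 10.19 in null livers 4, 5 and 16, against 10.48, 10.56 and 9.99 in WT livers 8, 9 and 10, and there the groups overlapped. The differences were 0.50 after APAP (SE 0.18, adjusted p = 0.363) and 0.16 in saline (SE 0.18, adjusted p = 0.840), and 0.33 over both treatments (SE 0.13, 95% interval 0.04 to 0.61, adjusted p = 0.212, limma). Over both treatments Csad passed with array weights (difference 0.34, adjusted p = 0.0239) and on the 8 arrays with the higher upper quartile (difference 0.40, adjusted p = 0.0376). Those settings called 1409 and 455 of all 8469 genes, against 378 in the main fit. Within the array sets the Csad difference after APAP was 0.67 in the set of 8 and 0.15 in the set of 4.

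**Figure D2:**
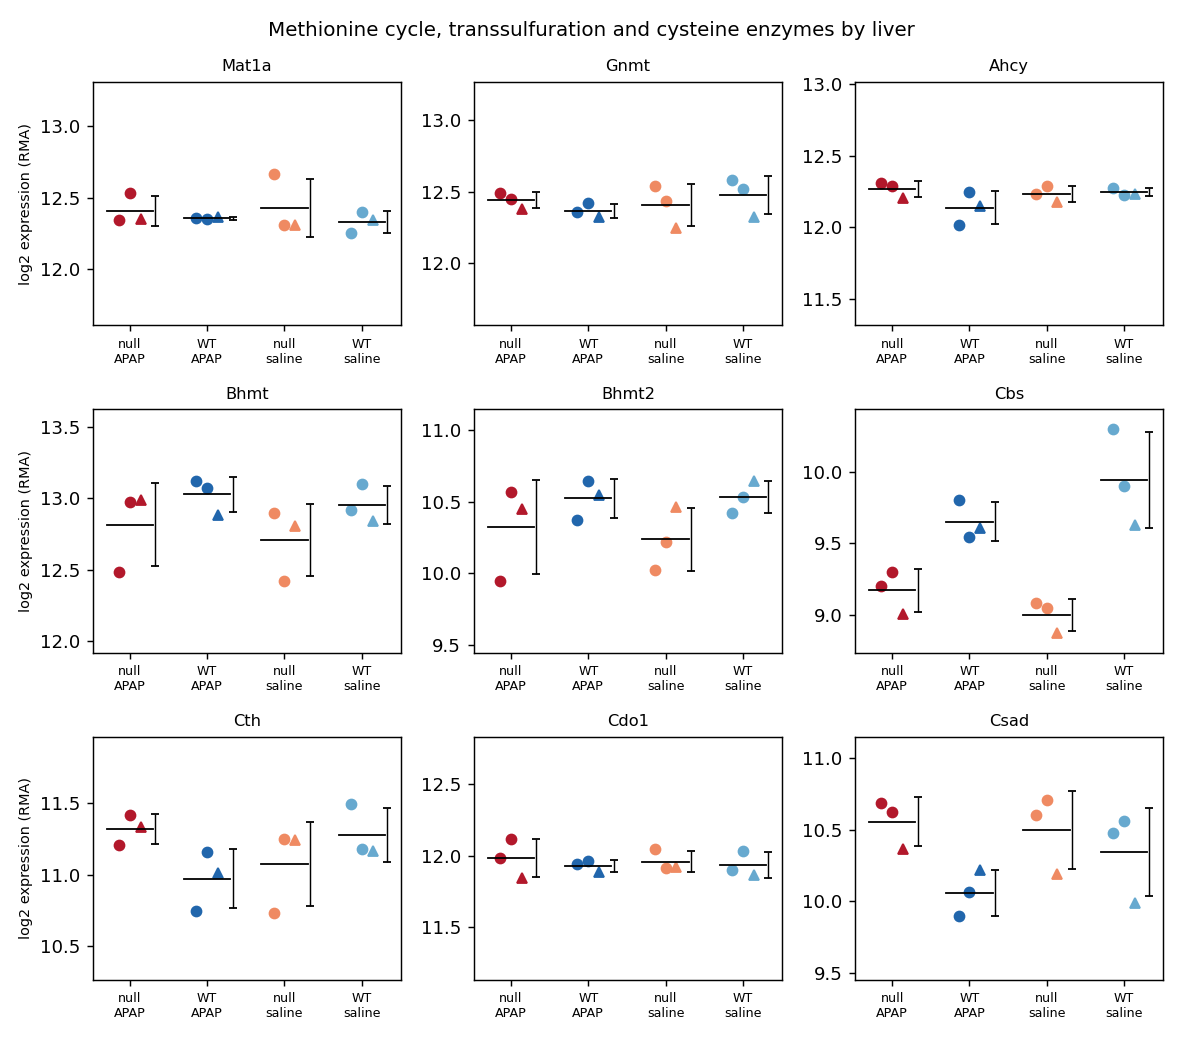
Log2 expression (y axis, the same span in every panel) of the main probe set of each of the 9 measured enzymes in each liver of the 4 groups (x axis); circles and triangles mark the 2 array sets, lines the group means and bars 1 SD of 3 livers. Cbs spans 1.43 over the 12 livers, against 0.27 for Cdo1 and 0.29 for Ahcy.

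Averaged over treatments, then, 1 of the 9 enzymes was called lower and 0 higher, where 4.46% of all genes were called (2.18% lower). Their median genotype difference was 0.04, against -0.01 for all genes tested. The median absolute difference was 0.07, against 0.11 for all genes. In saline the median over the members was -0.07, against -0.03 for all genes, and after APAP 0.06, against 0.00.

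**Figure D3:**
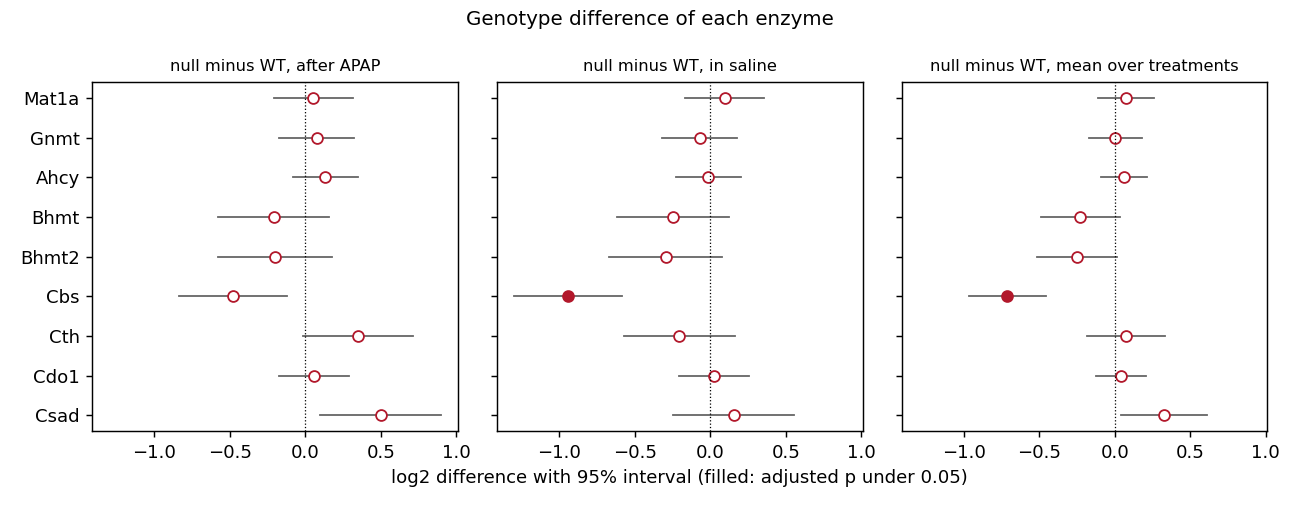
Log2 difference between null and WT livers (x axis) of each measured enzyme (y axis), after APAP, in saline and averaged over treatments, with 95% intervals from the fit; filled points passed an adjusted p of 0.05. Cbs is the filled point at -0.94 in saline and at -0.71 over both treatments, and the intervals of Mat1a, Gnmt, Ahcy and Cdo1 include 0 in all 3 panels.

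No enzyme passed the test for APAP against saline. In WT livers 0 of the 9 enzymes were called, where 0% of genes were (limma; 143 genes, 1.69%, and 0 members at an unadjusted p under 0.05). In null livers 0 were called, where again 0% of genes were (limma; 59 genes, 0.697%, and 0 members at an unadjusted p under 0.05). The largest member differences in WT livers were -0.31 for Cth (95% interval -0.67 to 0.06), -0.29 for Cbs (95% interval -0.65 to 0.07) and -0.28 for Csad (95% interval -0.68 to 0.12). In null livers they were 0.25 for Cth (95% interval -0.12 to 0.61) and 0.17 for Cbs (95% interval -0.19 to 0.53).

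By sign, the APAP mean was above the saline mean for 8 of 9 enzymes in null livers and for 2 of 9 in WT livers. For all genes these shares were 55.9% and 45%. Some differences were small, such as Cdo1 at 0.03 in null and -0.01 in WT livers. The interaction was positive for 8 of 9, against 56.8% of all genes, and was called for 0 of 9 (0% of all genes; limma, 1 member and 109 genes, 1.29%, at an unadjusted p under 0.05). These sign counts come from the same 12 livers for every enzyme, so the enzymes are not independent of each other. Averaged over genotypes the APAP differences lay between -0.11 (Csad) and 0.09 (Bhmt), with 0 called (0% of all genes; limma, 0 members and 102 genes, 1.2%, at an unadjusted p under 0.05).

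Around the members, 7 lists of neighbouring reactions held 76 genes, of which 58 were tested. Averaged over treatments 3 of the 58 were higher in livers labelled null and 1 lower, or 6.9%, against 4.46% of all genes. Of the 9 tested genes of glutathione synthesis and turnover 2 rose. Gclc, the catalytic subunit of the enzyme that joins cysteine to glutamate, averaged 10.95 ± 0.33 in null and 9.99 ± 0.44 in WT livers (SD, n = 6 each; 1.94-fold, adjusted p = 0.0210, limma). Gsr, glutathione reductase, averaged 7.71 ± 0.16 in null and 6.85 ± 0.09 in WT livers (1.82-fold, adjusted p = 0.000243, limma), and without the array set in the fit it was the 1 gene of the 58 called in saline and again after APAP. With the array set as a covariate 2 of the 58 were called in saline (Gsr and Tst), 4 after APAP (Gsr, Gclc, Chdh and Ethe1) and 6 over treatments (Gsr, Gclc, Chdh, Tst, Ethe1 and Pemt). That fit called more of all 8469 genes as well: 243 in saline, 185 after APAP and 882 over treatments. Gsr and Gclc are well known targets of NRF2 and had been seen to rise in these data before the lists were drawn up.

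Chdh, choline dehydrogenase, which starts the conversion of choline to the betaine that Bhmt uses, rose 1.33-fold, at 9.18 ± 0.12 in null and 8.76 ± 0.10 in WT livers (SD, n = 6 each; adjusted p = 0.0183, limma). No WT liver reached the lowest null liver for Chdh (8.86 against 9.01). Tst, thiosulfate sulfurtransferase or rhodanese, which handles sulfane sulfur in mitochondria, fell 1.35-fold, at 9.91 ± 0.12 in null and 10.35 ± 0.15 in WT livers (adjusted p = 0.0134, limma). Here too the genotypes did not overlap, with null livers at 9.76 to 10.10 and WT livers at 10.14 to 10.60. Such a separation of the genotypes was shown by 4.36% of all genes.

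The other neighbours gave values without a call. Of the 6 tested genes on the list of the folate cycle and methionine synthase 0 passed. The largest genotype differences over treatments were -0.24 for Ftcd and -0.17 for Shmt1. The others tested were Mthfd1, Aldh1l1, Shmt2 and Mtrr, so methionine synthase itself was not tested. Mtrr was dim, with group means of 3.02 to 3.27. Of 11 genes that use S-adenosylmethionine 0 passed, led by Hnmt (0.53) and Gamt (-0.37). Of 9 genes of methionine salvage and polyamines 0 passed (Mri1 -0.30, Adi1 -0.20), and of 7 genes of cysteine and cystine transport 0 passed (Slc3a1 -0.70, Slc38a2 -0.24). Ethe1, the mitochondrial persulfide dioxygenase, had a difference between genotypes of 0.78 after APAP (adjusted p = 0.189, limma), which was called with the array set as a covariate (adjusted p = 0.0331). For APAP against saline in either genotype, and for the interaction, 0 of the 58 were called, where 0% of all genes were.

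**Figure D4:**
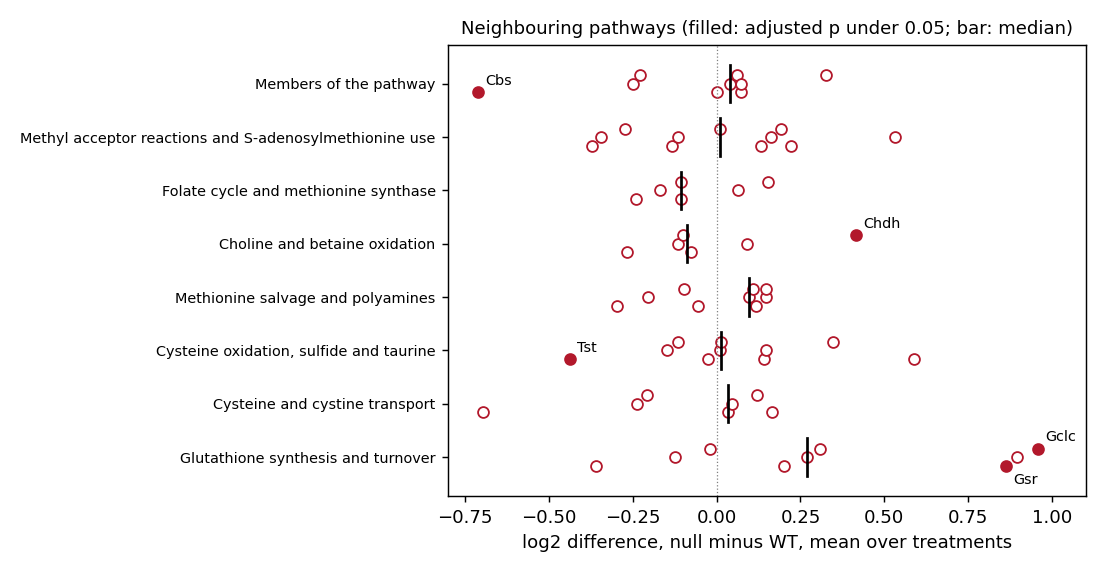
Log2 difference between null and WT livers averaged over treatments (x axis) for the measured members and for the tested genes of 7 neighbouring lists (y axis), 1 point per gene, filled where the adjusted p was under 0.05, with the median as a vertical bar. The filled points are Cbs, Tst, Chdh, Gsr and Gclc, and the median of the glutathione list is 0.27.

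Markers of other cells were set beside the Cbs result. Stellate cell and fibroblast markers had mean levels of 4.39 to 4.87 in null livers and 4.81 to 5.25 in WT livers, and 1 of 7, Pdgfrb, was called lower over both treatments (difference -0.62). On the pancreatic acinar list the means of the 3 genes on the array were 3.21 to 3.41 in null and 3.71 to 4.04 in WT livers. Only 1 of them, Cela1, passed the filter on low values. Cela1 was called lower (difference -1.77), and the list means include it, so they are not separate from this 1 gene. Of 8 pericentral hepatocyte genes 1 was called, Rhbg, which was higher. On each other marker list 0 of the tested genes were called in this comparison, where 4.46% of all genes were. The part of these markers in the Cbs difference was not tested.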

How the data were processed

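Liver RNA was read on 12 Affymetrix arrays, 1 per sample. The deposited values are log2 signals summarised over probes; per the submitters' processing notes the authors used RMA, with no version or settings stated there. There were 22690 probe sets: 20380 with 1 gene symbol in the platform annotation, 691 with several, 1555 with none and 64 controls. Each gene was read from its probe set of highest mean, and tested where 3 or more arrays put it over their 40th percentile, which kept 8469 of 12393 genes. Precision is set by the 3 arrays per group.

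The test was limma (3.58.1, R 4.3.3): 1 mean per group over all 12 arrays, 8 residual and 3.43 prior degrees of freedom, Benjamini-Hochberg adjustment over all genes tested, called at an adjusted p under 0.05, two-sided. The steps were tested on simulated data. Adjusted p-values come from this fit, for second probe sets from the same fit over 13124 probe sets, and where an alternative is named from that alternative's fit. Pairwise correlations between arrays were 0.986 to 0.998. The alternatives were the array set as a covariate, only the arrays compared, no filter, array weights, every probe set a row, the mean over probe sets, quantile normalization, eBayes with trend and robust, and each array left out.

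All members were named always, with every probe set; from each list and comparison up to 4 called genes per direction, or else the 2 largest differences; and the 5 genes most like a called member. The text gives these list genes for the genotype comparison over treatments, and Ethe1 and the genes called with the array set as a covariate besides, chosen after their values were seen. The members and lists were chosen with earlier results of these data known. Promoter windows came from RefSeq (GRCm38.p6), with 7 of 10 members listed.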

Additional observations from a re-analysis of the deposited data

Results flagged for a closer look

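On the dimmer probe set of Cbs, APAP groups lay apart from saline groups, in opposite directions in null and WT livers. This pattern was itself the rule for the flag. Null APAP livers read 6.85 to 7.30 against 6.60 to 6.70 in null saline livers, above them without overlap. WT APAP livers read 7.48 to 7.74 against 7.78 to 8.60 in WT saline livers, below them without overlap. Neither APAP comparison passed the test. The difference of the APAP effects was 0.98 (SE 0.28, 95% interval 0.38 to 1.59, unadjusted p = 0.00426), and the test of this interaction over 13124 probe sets did not pass (adjusted p = 1.00, limma). Such opposite, non-overlapping differences were seen for 21 of the 13124 probe sets. On the brighter probe set the same difference was 0.46 and the groups overlapped in both genotypes. Without WT saline 8 the value was 0.74 on the dimmer and 0.28 on the brighter probe set.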

How the results depend on the processing

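Over 1394 recomputed differences of single members, 1383 kept their side of the threshold, 7 lost a call and 4 gained one. Most were of differences never called: 41 of the 1296 on main probe sets were of a called one. The call of Cbs in saline held in 15 of 21 alternatives, and that over both treatments in 20 of 20. A sign was counted as reversed only for a called value, and this did not happen; among the 1296 values of the main probe sets 76 changed sign, all uncalled and at most 0.16 in size. The number of members called in saline was 1, and became 0 with only the arrays compared, 2 with array weights (Cbs and Bhmt, difference -0.54) and 0 to 1 when 1 array was left out. Over both treatments it was 1, and became 3 with array weights (Cbs, Bhmt at -0.38 and Csad) and 2 on the 8 arrays with the higher upper quartile, a setting chosen after seeing the data, and stayed at 1 without any 1 array. It was 0 in the other 5 comparisons under every alternative run. Counts over all genes moved more: in saline 54 genes became 243 with the array set, 1323 with array weights, 19 with only the arrays compared, 121 with trend and robust, 104 with quantile normalization, 117 on the 8 arrays and 10 to 92 without 1 array. After APAP 65 became 185, 210, 39 and 98 in the first 4 of these and 21 to 60 without 1 array, and over both treatments 378 became 882 with the set, 1409 with weights, 590 with quantile normalization and 208 to 416 without 1 array. With every probe set a row 82 were called in saline and 99 after APAP. On the dimmer Cbs probe set the saline call was lost without null saline 5 (difference -1.47, adjusted p = 0.0573, limma). No paired analysis was possible because no replicate number is shared between groups. The cause of these changes was not tested.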
